A study of Homo sapiens with 4 samples.

Results

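GATA3 binding was examined at 10 human genes of the epithelial-mesenchymal transition (EMT), out of 20033 protein-coding genes: 6 transcription factors that drive the transition (SNAI1, SNAI2, TWIST1, TWIST2, ZEB1 and ZEB2) and 4 genes of cell adhesion and the cytoskeleton (CDH1, CDH2, EPCAM and VIM). The cells were H1, a single established human embryonic stem cell (hESC) line grown in mTeSR1 on Matrigel and given BMP4 (50 ng/ml) for 6 h. Chromatin immunoprecipitation with a GATA3 antibody was followed by sequencing (ChIP-seq) in 2 biological replicates, and the peaks of each were called against an input from cells treated alike. A GATA3 ChIP without BMP4 was not analysed here, so the values below are levels of listed binding after BMP4 and not changes caused by it. No RNA was measured in these libraries, so the identity of the cells was not checked against marker genes.

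A position was assigned to a gene if it was inside the gene, no more than 100 kb from its 5′ end, or listed under its symbol by the authors. Replicate 1 had 29 such positions of 18456, and replicate 2 had 21 of 12782. A replicate 1 and a replicate 2 position no more than 100 bp apart formed a shared region, and the 10 genes held 15 of the 9145 shared regions. Genome positions are those of hg38 and genes are those of GENCODE release 44. Distances are negative upstream of the 5′ end. Whether a listed position is the summit or the midpoint of its peak is not given in the sources used here, so distances in bp between replicates and from motifs to a centre refer to the positions as listed.

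In EMT, epithelial cells loosen their junctions and take on a migratory, mesenchymal form, as happens when mesoderm leaves the epiblast at gastrulation. SNAI and ZEB proteins are zinc finger repressors that bind E-box sequences, including those at CDH1, and TWIST proteins are basic helix-loop-helix factors of mesoderm and neural crest. CDH1 encodes E-cadherin, the cadherin of epithelial and pluripotent cells, and CDH2 encodes N-cadherin, its mesenchymal and neural counterpart. EPCAM is an adhesion molecule of epithelial and pluripotent cells, and VIM encodes vimentin, an intermediate filament protein of mesenchymal cells. GATA3 is a zinc finger factor that binds GATA sequences and is known for its roles in trophoblast and T cells.

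At least 1 shared region was found at 7 of the 10 genes, against a background of 47.7% of all protein-coding genes under the same rule. The regulators had one at 4 of 6 genes and held 10 regions, and the adhesion and cytoskeleton genes had one at 3 of 4 and held 5. ZEB2 stood apart with 6 regions. SNAI2, CDH1 and VIM had 2 each, and SNAI1, TWIST1 and CDH2 had 1 each. ZEB1, TWIST2 and EPCAM had 0. The median was 1 region per gene among the 10 and 0 over all protein-coding genes, and the means were 1.5 and 0.748.

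Closer to the genes, a shared region lay within 10 kb of the 5′ end at 2 regulators (SNAI2 and ZEB2) and at 2 of the other genes (CDH1 and VIM), where the background is 8.69% of protein-coding genes. Only the SNAI2 region was within 1 kb. Relative to the listed gene, 9 of the 15 regions lay upstream, 1 downstream, 5 in its introns and 0 in its exons. Some of the regions lay in other annotated genes, which are named below. The 5′ end nearest to the region among all protein-coding genes was that of the listed gene itself for 11 of the 15. The exceptions were the SNAI1 and TWIST1 regions, the distal SNAI2 region and the distal VIM region.

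**Figure D1:**
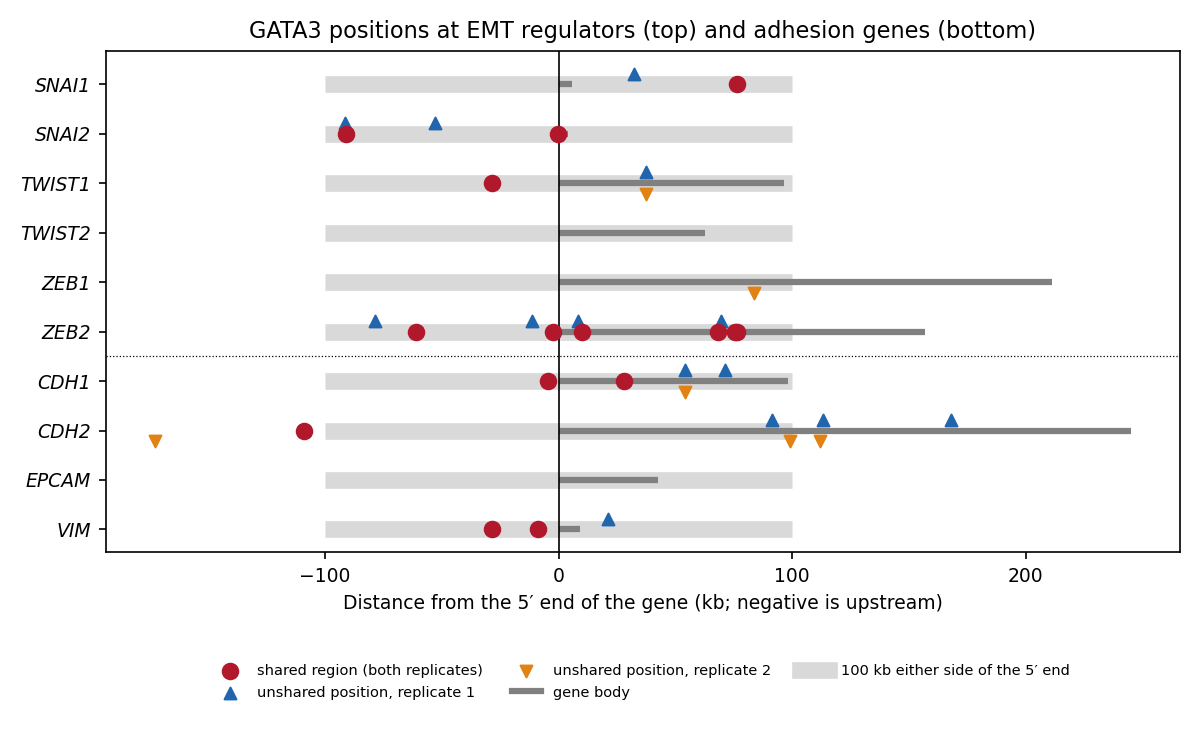
Positions of GATA3 at each gene, by distance in kb from the gene's 5′ end (x axis, linear). Circles are shared regions, upward triangles are positions of replicate 1 only, downward triangles are positions of replicate 2 only, dark bars are gene bodies and pale bars the 100 kb either side. ZEB2 carries 6 of the 15 circles, and the TWIST2 and EPCAM lines carry no symbol.

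**Figure D2:**
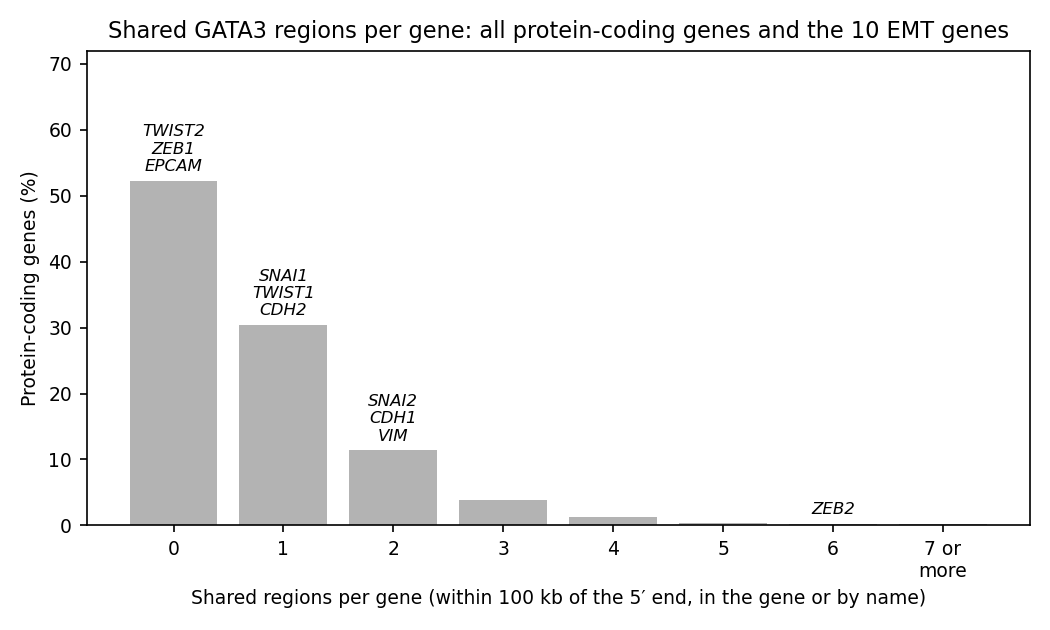
Bars give the percentage of all 20033 protein-coding genes (y axis) with each number of shared regions (x axis), and the 10 genes are named above their number. 3 genes sit over the tallest bar at 0 regions, and ZEB2 sits over 6, a number reached or passed by 0.399% of genes.

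ZEB2 is a repressor of epithelial genes with roles in neural crest and in the exit from pluripotency. The gene covers 144364364 to 144521057 of chromosome 2 (minus strand). Replicate 1 listed 10 positions there and replicate 2 listed 6, and all 6 of replicate 2 were shared. The replicates thus differed in how many positions they listed, but every region seen in the shorter list was in the longer one. A count of 6 or more shared regions was reached by 0.399% of protein-coding genes. It was reached by 0.12% when only 100 kb around the 5′ end was searched, a span that does not grow with gene length. Taken alone, 0.409% of genes reached the 10 positions of replicate 1 and 1.05% the 6 positions of replicate 2.

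The ZEB2 regions lay in intron 2 at 4 places and upstream at 2. The nearest to the 5′ end was 2.4 kb upstream, at 144523484 (replicate 1) and 144523439 (replicate 2), in intron 1 of LINC01412, a noncoding RNA of the opposite strand. The next, at 144510803 and 144510863, was 10.2 kb into the gene. Farther into intron 2, 3 regions were grouped at 68.3, 75.7 and 76.5 kb from the 5′ end, the last pair only 0.847 kb apart. The remaining region lay 60.9 kb upstream, at 144581893 and 144581941, in no annotated gene. Replicate 1 alone had positions at 69.5, 8.18, -11.5 and -78.7 kb, and the closest replicate 2 position to any of these was 1147 bp away.

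The sequences at ZEB2 are shown because its regions differ in the GATA family motif, which is an A or T, then GATA, then an A or G, read on both strands in the 200 bp around the region centre. The motif was in 3 of the 6 ZEB2 regions and in 9 of 9 regions at the other genes, against 82% of all shared regions. This split was made after the values were seen, and the count depends on the window. Over all 15 regions the motif was in 80% at 200 bp, 73.3% at 100 bp and 86.7% at 400 bp. Neither the split at ZEB2 nor the share of all shared regions is given here for the other windows. Each line is hg38 sequence on the minus strand, which is the strand of the gene. Capitals mark the GATA family motif in the first group of 3 (chr2:144581858-144581917, chr2:144452656-144452715 and chr2:144444566-144444625).
ZEB2 60.9 kb upstream: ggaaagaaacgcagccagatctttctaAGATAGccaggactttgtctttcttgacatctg
ZEB2 68.3 kb downstream: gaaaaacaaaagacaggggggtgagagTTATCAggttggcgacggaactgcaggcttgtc
ZEB2 76.5 kb downstream: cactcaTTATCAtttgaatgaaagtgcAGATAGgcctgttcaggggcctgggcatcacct
In these 3 the nearest motif lay 29.5, 43.5 and 45 bp from the centre.

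The 3 ZEB2 regions without the motif each held 1 bare GATA core on one strand. Capitals mark that core in the region nearest to the 5′ end (chr2:144523450-144523509) and in the region at 75.7 kb (chr2:144445337-144445396), 17 and 31.5 bp from the centre. In the region at 10.2 kb (chr2:144510732-144510791) they mark instead an octamer, the sequence bound by POU factors such as POU5F1, 70.5 bp from the centre. Neither the centre of that region nor its GATA core is in the printed stretch, and binding of POU factors was not tested.
ZEB2 2.4 kb upstream: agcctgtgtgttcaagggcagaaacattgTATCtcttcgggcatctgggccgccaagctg
ZEB2 75.7 kb downstream: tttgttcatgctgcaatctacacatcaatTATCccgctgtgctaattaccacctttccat
ZEB2 10.2 kb downstream: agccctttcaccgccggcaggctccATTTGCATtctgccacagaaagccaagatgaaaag
The region closest to ZEB2 was therefore among those with no complete GATA family motif. The octamer was in 1 of the 15 regions and in 5.1% of all shared regions.

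ZEB1, the paralogue of ZEB2, covers 31318495 to 31529814 of chromosome 10 (plus strand) and had no shared region. Replicate 1 listed 0 positions and replicate 2 listed 1, at 31402145 in intron 1, 83.7 kb from the 5′ end. The nearest shared region was 248 kb upstream. Among the 10 genes ZEB2 thus had the highest count, and ZEB1 had the lowest, as did TWIST2 and EPCAM. A count of 0 is the common one, held by 52.3% of protein-coding genes. The span searched was 311 kb for ZEB1 and 257 kb for ZEB2.

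SNAI1, the Snail repressor of CDH1, covers 49982980 to 49988886 of chromosome 20 (plus strand). Its 1 shared region, at 50059315 and 50059299, lay 76.3 kb downstream of the 5′ end, and the nearest coding 5′ end was that of UBE2V1 at 56.7 kb. Replicate 1 had a second position at 50015342 that replicate 2 lacked. TWIST1, a mesoderm and neural crest regulator, covers 19020991 to 19117636 of chromosome 7 (minus strand). Its 1 shared region, at 19146331 and 19146338, lay 28.7 kb upstream but only 0.913 kb from the 5′ end of FERD3L, a related basic helix-loop-helix gene. Inside the TWIST1 gene, beyond its canonical transcript, the replicates had positions at 19080089.5 and 19080227, which were 137.5 bp apart and so did not count as shared. The sequences below are the GATA family motifs nearest to the centres of both regions (chr20:50059261-50059320 on the plus strand and chr7:19146338-19146397 on the minus strand), with the motifs in capitals.
SNAI1 76.3 kb downstream: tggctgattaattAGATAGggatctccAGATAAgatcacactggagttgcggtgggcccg
TWIST1 28.7 kb upstream: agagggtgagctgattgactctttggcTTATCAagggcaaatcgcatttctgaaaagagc
The SNAI1 stretch carries a pair of motifs in one orientation, and the TWIST1 stretch carries 1.

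TWIST2, a regulator close to TWIST1, had 0 positions in both replicates within its span (chromosome 2, gene from 238848032 to 238910534, plus strand). The nearest shared region was 591 kb upstream. Of all protein-coding genes 27.4% likewise had no position in either replicate. A list of peaks shows only what passed the peak caller's threshold, and the read depth at these genes is unknown from the files.

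SNAI2, which encodes Slug and marks migrating mesoderm and neural crest, covers 48917598 to 48921740 of chromosome 8 (minus strand). The nearer of its regions lay 0.429 kb upstream of the gene and 0.74 kb upstream of the canonical transcript, with positions at 48922144 (replicate 1) and 48922194 (replicate 2). It fell in exon 1 of a long noncoding RNA annotated on the opposite strand. The window held 2 GATA family motifs, both of the strict form AGATAA, the nearer 2.5 bp from the centre. A second region, at 49012822 and 49012820, lay 91.1 kb upstream and nearer to PPDPFL, whose 5′ end was 41.5 kb away. That window held 8 GATA family motifs, and 0.295% of all shared regions held 8 or more. Replicate 1 alone had positions at -52.8 and -91.6 kb.

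CDH1 was the adhesion gene with shared regions both before and inside the gene. It covers 68737292 to 68835537 of chromosome 16 (plus strand). Replicate 1 listed 4 positions and replicate 2 listed 3. A shared region lay 4.37 kb upstream, at 68732939 and 68732909, and another in intron 2, 27.8 kb from the 5′ end, at 68765108 and 68765078. Both held 1 motif of the strict form, 4.5 and 9.5 bp from the centre. The upstream region was also within reach of CDH3, the P-cadherin gene next to CDH1, at 96.7 kb from its 5′ end. Farther along intron 2 the replicates had positions 122 bp apart, at 68791410 and 68791532, just beyond the limit for sharing, and replicate 1 alone had a position in intron 3.

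CDH2 covers 27932879 to 28177946 of chromosome 18 (minus strand). Its 1 shared region, at 28287296 and 28287298, lay 109 kb upstream, outside the 100 kb, and was included because the authors' list gave it the name CDH2. Inside the gene replicate 1 had 3 positions and replicate 2 had 2, and 0 of them matched within 100 bp. A pair in intron 2 was 130 bp apart, and 1 position of replicate 1 fell in coding exon 5. Replicate 2 alone had a further position at -173 kb that the authors' list named CDH2. The body of CDH2 was therefore listed in each replicate but at no shared place.

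VIM covers 17228241 to 17237593 of chromosome 10 (plus strand). The nearer region, at 17219336 and 17219327, lay 8.91 kb upstream in intron 1 of the antisense transcript VIM-AS1, and had the lowest GC content of the 15 windows at 32.5%. The farther region, at 17199635 and 17199655, lay 28.6 kb upstream in intron 1 of TRDMT1 and 2.41 kb from the 5′ end of that gene. EPCAM (chromosome 2, 47345158 to 47387601, plus strand) had 0 positions in both replicates, and its canonical transcript starts 24.2 kb inside the annotated gene. Its nearest shared region was 168 kb upstream. The GATA family motifs nearest to the centres at CDH1 (chr16:68732899-68732958, plus strand), CDH2 (chr18:28287221-28287280, minus strand) and VIM (chr10:17219321-17219380, plus strand) are shown in capitals.
CDH1 4.37 kb upstream: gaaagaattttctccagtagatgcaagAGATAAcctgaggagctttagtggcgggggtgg
CDH2 109 kb upstream: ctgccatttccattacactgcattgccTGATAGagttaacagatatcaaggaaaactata
VIM 8.91 kb upstream: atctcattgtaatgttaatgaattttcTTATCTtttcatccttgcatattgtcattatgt
The CDH1 and VIM stretches carry the strict form, written as its reverse complement at VIM, and the CDH2 stretch does not.

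Compared as groups, the regulators held 10 shared regions in 1368 kb searched, or 0.731 per 100 kb (95% exact Poisson interval 0.351 to 1.34). The adhesion and cytoskeleton genes held 4 in 945 kb, the named CDH2 region being outside, or 0.423 per 100 kb (0.115 to 1.08). The intervals overlap, and they cover counting error over regions only. Without ZEB2, the other regulators held 4 regions in 1111 kb, or 0.36 per 100 kb (0.0981 to 0.922), so the higher density of the regulators came from 1 gene. Over the spans of all protein-coding genes the density was 0.325 per 100 kb. No test was run between 6 and 4 genes chosen with earlier results in view.

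The study kept only peaks found in both replicates, so the share of positions that matched was compared next. At the 10 genes 51.7% of the 29 positions of replicate 1 were shared (95% Wilson interval 34.4 to 68.6), against 49.6% over all its positions. For replicate 2 the share was 71.4% of 21 (50 to 86.2), against 71.5%. In replicate 1 the regulators had 10 of 18 positions shared, 55.6% (33.7 to 75.4), and the adhesion and cytoskeleton genes 5 of 11, 45.5% (21.3 to 72). At the regulators 10 of 12 positions of replicate 2 were shared, 83.3% (55.2 to 95.3), and at the adhesion and cytoskeleton genes 5 of 9, 55.6% (26.7 to 81.1). Within shared regions the replicates were a median of 30 bp apart, against 23 bp over all shared regions. Of the unshared positions, 3 of 14 in replicate 1 and 3 of 6 in replicate 2 had a partner beyond 100 but within 250 bp, at TWIST1, CDH1 and CDH2. The same held for 11% and 28.3% of unshared positions overall.

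The GATA family motif was in 12 of the 15 regions, 80% (95% Wilson interval 54.8 to 93), against 82% of all shared regions. The regulators had it in 7 of 10 and the other genes in 5 of 5, with intervals of 39.7 to 89.2% and 56.6 to 100% that overlap. The strict form AGATAA was in 3 of 10 regions at regulators and in 4 of 5 at the other genes, again with overlapping intervals (10.8 to 60.3% and 37.6 to 96.4%), against 51.6% of all shared regions. Where present, the nearest motif was a median of 24.2 bp from the centre, and 18 bp over all shared regions. The bare GATA core was in all 15 regions, and in 92.6% of all shared regions. The E-box CACCTG, on either strand, was searched because SNAI and ZEB proteins bind it. It was in 2 of the 15 windows, at SNAI1 and in the ZEB2 region at 76.5 kb, and in 13.5% of all shared regions. The SMAD element GTCTG was in 2 of 15, against 36.1%, and the upper end of its interval was 37.9%.

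**Figure D3:**
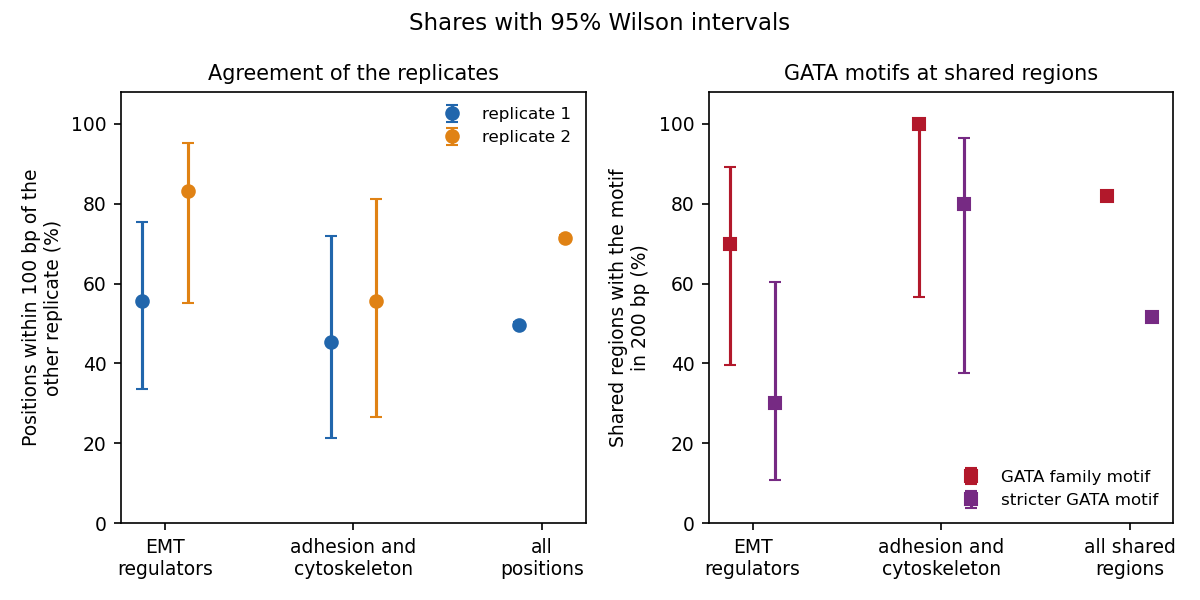
Left, percentage of positions within 100 bp of the other replicate. Right, percentage of shared regions with the GATA family motif or its strict form in 200 bp. Points are shares and bars are 95% Wilson intervals. The intervals of the regulators and of the adhesion and cytoskeleton genes overlap in every pair, and the values of all positions or regions fall inside them.

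**Figure D4:**
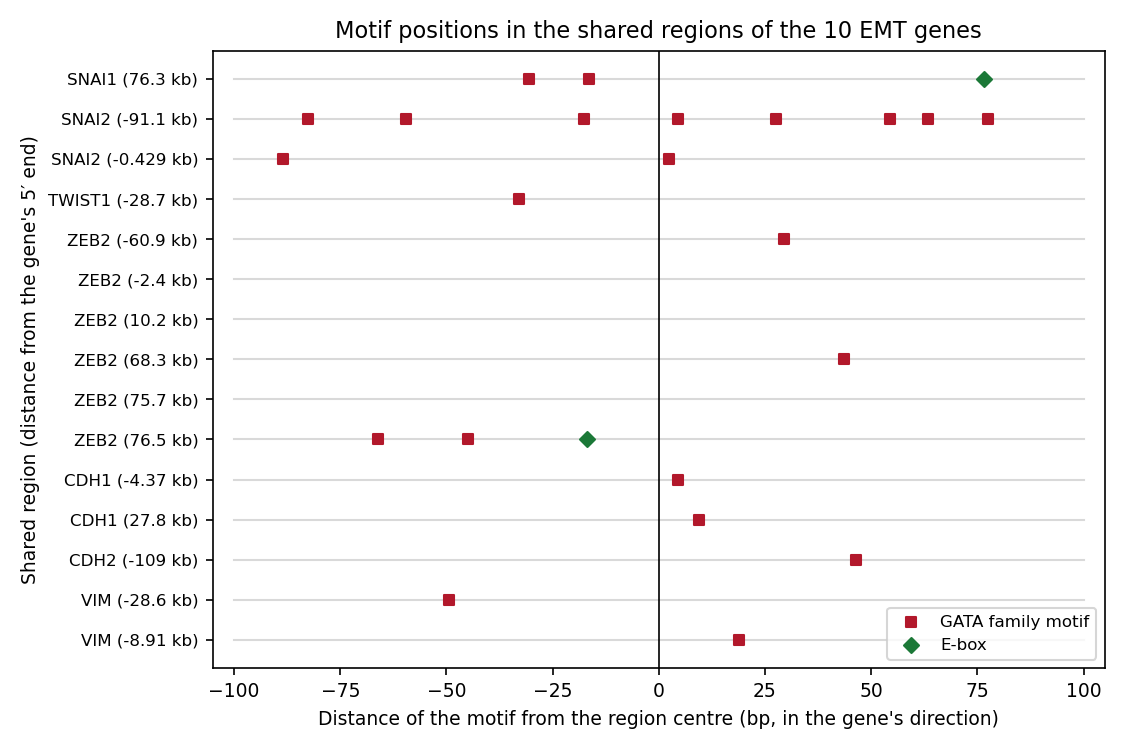
Each row is 1 of the 15 shared regions, labelled with its gene and its distance from the gene's 5′ end, and the x axis is the distance in bp of each motif from the region centre. Squares are GATA family motifs and diamonds are E-boxes. The distal SNAI2 row carries 8 squares, and 3 ZEB2 rows carry none.

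Other genes of the transition were counted in 5 lists of 45 genes in all, of which 30 had a shared region (66.7%, against the 47.7% of all protein-coding genes). Among other EMT transcription factors 4 of 8 had one. Among epithelial regulators of transcription and splicing 3 of 7 had one (GRHL1, GRHL2 and OVOL2), with 0 within 10 kb. Among other cadherins and catenins 5 of 9 had one, including CDH3 through the region upstream of CDH1, and CTNNB1, which encodes β-catenin, had 0.

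Among tight junction and desmosome genes 10 of 11 had a shared region, CRB3 being without, against 47.7% of protein-coding genes. Their median was 1 region per gene, against 0 over all protein-coding genes. Within 10 kb of the 5′ end only 1 of the 11 had a shared region, against 8.69% of protein-coding genes. This was CLDN6, a claudin of embryonic epithelia, with a region in intron 1, 2.03 kb from its 5′ end. CLDN3 and CLDN4 are neighbours and were both counted through the same region. Among intermediate filament and mesenchymal genes 8 of 10 had one, against the same 47.7%, and FN1 and ACTA2 had 0. The keratin genes KRT8 and KRT18, also neighbours, shared a region that was 4.29 kb from the 5′ end of KRT8 inside that gene and 3.2 kb upstream of KRT18. KRT19 had one 2.08 kb upstream, and SPARC, a matrix protein gene, had one in intron 1, 1.75 kb from its 5′ end. In all, 6 of the 45 genes had a region within 10 kb, against 8.69% of protein-coding genes, and KRT8 and KRT18 are counted through the same one. The authors' own list gave a shared region the symbol of SNAI2, ZEB2, CDH1, CDH2 and VIM, and of 11.3% of protein-coding genes.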

How the data were processed

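GATA3 ChIP-seq peaks of H1 hESC were analysed in 2 replicates (50 ng/ml BMP4, 6 h). The authors used cutadapt for adapters, bowtie for alignment (hg38) and Picard for duplicates, left out multiply mapped reads and blacklisted regions, and called peaks with MACS2 (q 0.05) in each replicate against its input. Versions of these tools are not given in the sources used here. The deposited lists give 1 position and 1 gene name per peak, with no score or width. Their lengths differ from the peak numbers in the study's methods, so the lists may not be exactly those peaks. Whether a position is a summit or a midpoint, and whether it counts from 0 or 1, is not given in the sources used here, so each is uncertain by at least 1 bp, and distances to motifs are from the listed positions. Read depth is unknown from these lists.

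Positions linked within 100 bp between replicates formed a region, centred on their mean. Genes, 5′ ends and canonical transcripts were those of GENCODE 44 on the autosomes, X and Y. Motifs were searched on both strands of the 200 bp around each centre, in hg38. Intervals (95% Wilson, exact Poisson) cover counting error only. All 10 genes were named, with each region in the gene or within 10 kb, and all regions of genes with at most 3. Sequences are the 60 bases around the motif nearest to the centre of the region nearest to each 5′ end. The other ZEB2 stretches were chosen after its values were seen, and sequence at SNAI2 and the values of a single listed gene are not reported here. The genes and lists were chosen with earlier results of these data known. No test was run. The steps were checked on simulated data. Analyses used Python 3.11.15, numpy 2.4.6, scipy 1.17.1 and matplotlib 3.10.9.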

Additional observations from a re-analysis of the deposited data

How the results depend on the processing

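No paired analysis was possible because the input samples have no file analysed here and no test compared groups. Of the values over groups recomputed under other settings, 58 stayed and 23 moved. A count stayed if it was within 1.5 times of its main value, and a percentage or density if it was within its interval. The interval of the background share over 20033 genes is narrow, so even small changes in that share were labelled as moved. Its changes within 10 kb (8.69%), within 50 kb (33%), by symbol (11.3%) and with 1 replicate (57.4% to 68.7%) were larger. Held to 10 kb of the 5′ end, 2 regulators had a shared region, with 2 regions at regulators and 2 at the other genes, and the share of positions matched was 80% in replicate 1 and 100% in replicate 2. By the authors' symbol alone, 2 regulators had one, with 2 regions at regulators and 3 at the other genes, and 71.4% of replicate 1 positions matched. Using 1 replicate at a time, the regulators held 12 to 18 regions and the other genes 9 to 11. Without ZEB2, a setting chosen after seeing the data, the regulators held 4. The strict form AGATAA was in 46.7% of the regions. The background of protein-coding genes with a region was 41.6%, 50.4% and 50.9% with replicates matched within 50, 250 and 500 bp, 33% within 50 kb, 45% within 100 kb of the 5′ end alone, 8.69% within 10 kb, 11.3% by symbol, and 57.4% to 68.7% with 1 replicate. At 250 bp TWIST1, CDH1 and CDH2 each gained a region, to 2, 3 and 2. Of the counts for single genes 71 stayed and 29 moved, and those of TWIST2 and EPCAM were 0 under each setting. The lists hold no depth, score or width, so how strongly a region was bound is not known.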

Other observations

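An unshared position of replicate 1 lay 21 kb downstream of the 5′ end of VIM, at 17249199 on chromosome 10, and its 200 bp window held 10 GATA family motifs. That is more than in any of the 15 shared regions, whose highest count was the 8 of the distal SNAI2 region. The nearest position of replicate 2 was 29872 bp away. The share of all replicate 1 positions with as many motifs is not given here.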
